A study of Mus musculus with 3 samples.

Results

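A set of 10 genes of the liver's acute-phase response outside the serum amyloid A family was followed in 3 single-cell libraries of mouse liver: Lcn2, Orm1, Orm2, Orm3, Hp, Hpx, Serpina3n, Itih4, Crp and Apcs. They were found by gene symbol, 10 of the 55357 genes in the count matrices, and all 10 had reads in hepatocytes of every library. They had been picked with their summed counts per cell class and library in these same data already known, so every value on them below is a description and none is tested. The control library came from untreated mice, the high-fat diet library from mice fed 60% of their energy as fat for 4 months, and the CCl4 library from mice kept on chow for 3 months and then injected intraperitoneally with 0.1 mL of 10% carbon tetrachloride 2 times a week for 4 weeks. All mice were wild-type male C57BL/6 animals aged 8 weeks at the start. Each library pooled the cells of 2 mice, with hepatocytes and nonparenchymal cells mixed 1:1. With 1 library per condition there was no replicate, no test between conditions was possible, and a condition cannot be told apart from its animals, its cell isolation or its library.

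Acute-phase proteins are plasma proteins that hepatocytes release in larger or smaller amounts when the body senses infection or tissue damage. Interleukin 6, acting through STAT3, and interleukin 1, acting through NF-kappaB and C/EBP factors, raise their transcription, and serum amyloid A is the family known to respond most steeply in mice. The members studied here have different tasks. Lcn2, lipocalin 2, withholds iron from bacteria by binding their siderophores and is also stored in neutrophil granules. Orm1, Orm2 and Orm3 encode orosomucoids, plasma carriers of drugs and other small ligands. Hp, haptoglobin, binds free hemoglobin and Hpx, hemopexin, binds free heme. Serpina3n is a serine protease inhibitor and Itih4 belongs to the heavy chains of the inter-alpha-trypsin inhibitor family. Crp and Apcs, C-reactive protein and serum amyloid P component, are the short pentraxins, of which Apcs is the stronger acute-phase protein in mice.

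The genes lie on 7 chromosomes of the GRCm38 build in the GENCODE M21 annotation. The orosomucoid genes stand side by side, Orm1 at chr4:63344560-63348163, Orm3 at chr4:63356162-63359511 and Orm2 at chr4:63362449-63365878, all on the plus strand. The pentraxin genes share chromosome 1, Crp at chr1:172698055-172833031 on the plus strand and Apcs at chr1:172893961-172895041 on the minus strand, and the annotated Crp gene overlaps the gene Gm38051 on the same strand. The others are Lcn2 at chr2:32384633-32388252 and Hp at chr8:109575128-109579172, both on the minus strand, Hpx at chr7:105591613-105600137 on the minus strand, Serpina3n at chr12:104406729-104414329 and Itih4 at chr14:30886476-30902353 on the plus strand. The longest coding transcripts of Orm1 and Orm2 matched at 91.0% of aligned bases and share a run of 141 bases, those of Orm1 and Orm3 matched at 86.5% and share 65 bases, and those of Orm2 and Orm3 matched at 88.5% and share 75 bases. Reads from these copies could be split or dropped in counting, so the division of counts among the 3 orosomucoid genes is uncertain.

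Because the signals that drive these genes act at their promoters, the promoter table of RefSeq (GRCm38.p6, from 250 bases before to 50 after the start of each gene) was searched, and 8 of the 10 members had an entry. The search used, on both strands, the TATA box TATAAA, found in 13.6% of all 32851 promoters, the STAT letters TTCNNNGAA, found in 8.30%, the C/EBP letters TTGCNNAA, found in 10.8%, and the kappaB letters GGG and TTTCC with any 2 bases between them, found in 1.63%. Of the 8 members, 4 held the TATA letters (Crp, Itih4, Orm2 and Orm3), 4 the C/EBP letters (Hpx, Lcn2, Orm2 and Orm3), 2 the STAT letters (Apcs and Itih4) and 1 the kappaB letters (Serpina3n). A match is only a description of letters. In Lcn2, 197 of the 250 bases before the start lie in annotated exons of the gene. Itih4, with a STAT match and no exon in that stretch, is not printed. The 250 bases before the start are printed for 4 members whose stretch overlaps no annotated exon, to show the neighbouring Orm2 and Orm3 side by side and 1 member each with a STAT and a kappaB match, 5′ to 3′ on the strand of the gene, with matches in capitals. They lie at chr4:63362199-63362448 (plus strand) for Orm2, chr4:63355908-63356157 (plus strand) for Orm3, chr1:172895055-172895304 (minus strand) for Apcs and chr12:104406458-104406707 (plus strand) for Serpina3n. The C/EBP match begins 120 bases before the start in Orm2 and 121 in Orm3, and the whole promoters of the pair were identical at 263 of 295 aligned bases (89.2%).
Orm2: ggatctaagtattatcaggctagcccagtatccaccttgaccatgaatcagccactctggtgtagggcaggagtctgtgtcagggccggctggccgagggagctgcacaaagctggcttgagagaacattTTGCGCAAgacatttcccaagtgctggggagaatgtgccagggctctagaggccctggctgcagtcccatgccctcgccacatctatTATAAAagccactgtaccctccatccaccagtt
Orm3: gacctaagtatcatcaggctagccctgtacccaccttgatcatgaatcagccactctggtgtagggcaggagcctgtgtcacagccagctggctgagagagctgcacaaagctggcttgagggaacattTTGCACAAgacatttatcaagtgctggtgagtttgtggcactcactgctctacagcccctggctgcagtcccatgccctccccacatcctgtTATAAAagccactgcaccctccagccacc
Apcs: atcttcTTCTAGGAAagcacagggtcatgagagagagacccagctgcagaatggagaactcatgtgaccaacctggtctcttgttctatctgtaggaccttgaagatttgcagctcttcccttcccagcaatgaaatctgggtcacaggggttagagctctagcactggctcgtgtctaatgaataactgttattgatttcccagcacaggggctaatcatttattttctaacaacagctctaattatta
Serpina3n: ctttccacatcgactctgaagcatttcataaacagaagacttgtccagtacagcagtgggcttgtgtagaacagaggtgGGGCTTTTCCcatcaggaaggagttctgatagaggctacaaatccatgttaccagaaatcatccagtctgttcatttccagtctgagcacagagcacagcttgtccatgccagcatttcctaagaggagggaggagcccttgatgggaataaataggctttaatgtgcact

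The libraries held 11245 to 12984 barcodes and 34061186 to 49613255 UMIs (unique molecular identifiers, 1 per captured RNA molecule), and pairs of libraries shared 36 to 52 cell barcodes. The control library was the deepest, with a median of 2939 UMIs per barcode against 2336 under high-fat feeding and 2173 with CCl4. Cells were grouped into classes from marker genes, and a class is called like the cell type whose markers it carried. Hepatocyte-like cells numbered 4961 in the control, 6399 in the high-fat diet and 7039 in the CCl4 library. Their clusters were almost wholly separate between libraries. Clusters 1 and 4 held the control cells, clusters 30, 32 and 33 nearly all of the high-fat diet cells, and clusters 31 and 39 most of the CCl4 cells. The control clusters were themselves led by acute-phase and stress genes, cluster 1 by Mt1, Saa2, Saa1 and Saa3 with the members Orm2, Lcn2 and Apcs, and cluster 4 by Il1r1 and Steap4 with the member Serpina3n, so members took part in forming them. Clustering without the acute-phase genes gave 4913, 6391 and 7049 hepatocyte-like cells. With each library clustered on its own they numbered 4921, 1195 and 3078, and all of the treated ones lay in clusters rich in mitochondrial RNA. In that setting 5132 high-fat diet and 4634 CCl4 cells had no name, so the name of most treated hepatocyte-like cells depended on clustering the libraries together. At resolution 2.0 the control kept 3500 hepatocyte-like cells and had 2048 unnamed ones.

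RNA released from broken cells enters every droplet, and T cells, which do not make these plasma proteins, were taken to give its level. The summed hepatocyte markers stood at 71363 UMIs per 1000000 UMIs of the class (CPM) in hepatocyte-like cells and 22888 CPM in T cell-like cells of the control library. Under high-fat feeding they were 121202 and 80299 CPM, and with CCl4 135408 and 103994 CPM, so free hepatocyte RNA was far closer to the hepatocyte level in these libraries than in the control. Each member is therefore given in hepatocyte-like and in T cell-like cells of the same library. Intervals are exact 95% intervals for counting error only and do not cover differences between mice.

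The members together took up 3.02% of the UMIs of hepatocyte-like cells in the control library, 0.843% under high-fat feeding and 0.898% with CCl4. Their sum was thus 3.58-fold lower under high-fat feeding than in the control (3.56 to 3.60) and 3.36-fold lower with CCl4 (3.34 to 3.38). The plot of levels by library shows that every member was highest in control hepatocyte-like cells. Its ratio to T cell-like cells was smaller in both other libraries than in the control.

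**Figure D1:**
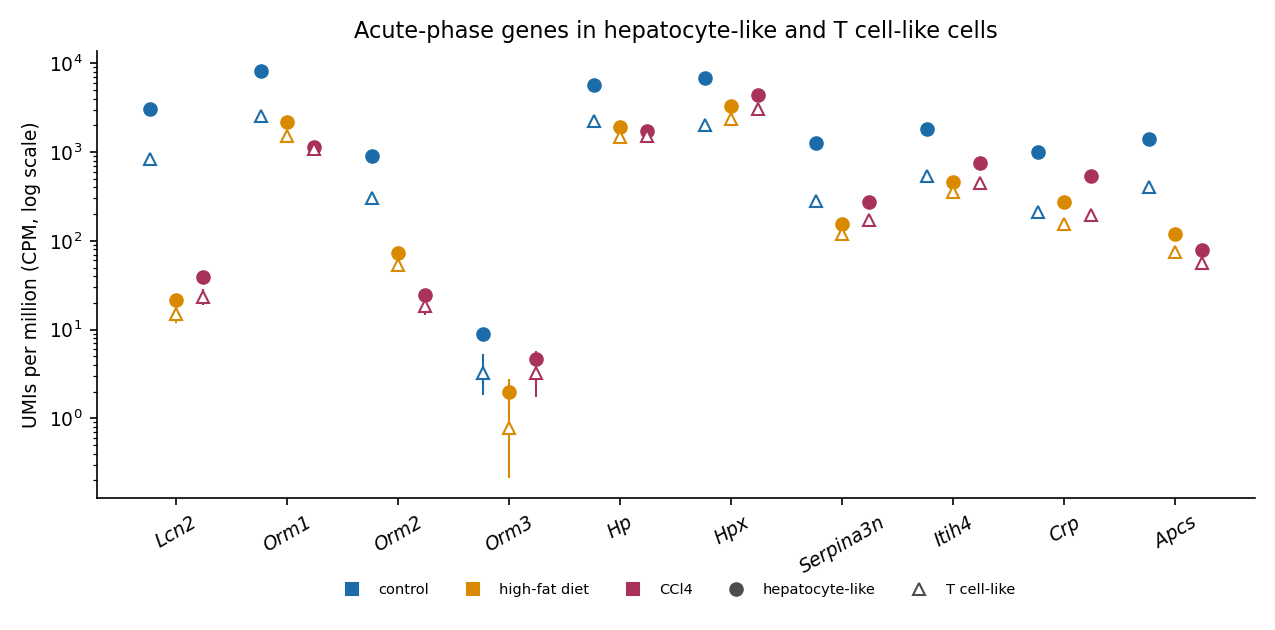
CPM (log axis) of each member in hepatocyte-like (filled circles) and T cell-like cells (open triangles) of the control, high-fat and CCl4 libraries, with 1 library per condition and exact 95% counting intervals. Control hepatocyte-like cells were the highest for all 10 members, Lcn2 for example at 3067 CPM against 21.5 and 38.9 CPM.

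Lcn2, the siderophore binder, differed most between the libraries. It stood at 3067 CPM in control hepatocyte-like cells, 21.5 CPM under high-fat feeding and 38.9 CPM with CCl4. The control level was far above both others, which made Lcn2 143-fold lower under high-fat feeding (129 to 158) and 78.8-fold lower with CCl4 (73.5 to 84.6). In T cell-like cells Lcn2 stood at 840, 15.1 and 23.3 CPM, so it was lower in the treated libraries there too, and the hepatocyte level was 3.65 times, 1.43 times and 1.67 times that of T cell-like cells in the same order.

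The cell class that held most of the Lcn2 UMIs was not the same in every library. Granulocyte-like cells held it at 3727 CPM in the control, 2508 CPM under high-fat feeding and 475 CPM with CCl4. Within them, the cluster led by the granule genes Camp, Ngp and Ltf, which mark immature neutrophils, reached 7250 CPM in the control and 6327 CPM under high-fat feeding, whereas the cluster led by Asprv1, Csf3r and Cxcr2 stood at 2121, 1026 and 217 CPM. In the granule-rich cluster the high-fat library thus stood close to the control, in contrast to the hepatocyte-like cells. Of all Lcn2 UMIs in the control library, 78.7% were in hepatocyte-like and 7.59% in granulocyte-like cells. Under high-fat feeding these shares were 11.0% and 67.0%, and with CCl4 60.5% and 6.83%. Of the UMIs of all genes, hepatocyte-like cells held 27518676 of 49613255 in the control, 17241886 of 34985786 under high-fat feeding and 20498100 of 34061186 with CCl4. With CCl4 their share of Lcn2 was thus close to their share of all UMIs, and it does not show them to be its source. Granulocyte-like cells were the main holders of Lcn2 under high-fat feeding, although they were 344 of its cells. When more variable genes (3000) were used, the granulocyte-like class of the control took in 963 cells in place of 616, and its Lcn2 level was 1.99 in place of 4.44 times that of T cell-like cells.

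Cholangiocyte-like cells, which line the bile ducts, held Lcn2 at 711, 573 and 142 CPM in the control, high-fat and CCl4 libraries. Under high-fat feeding this was 38.0 times the T cell-like level (29.6 to 49.3) and with CCl4 6.08 times (4.56 to 8.11), whereas in the control it was 0.846 times. To allow for free RNA, each ratio was also divided by the same ratio of the hepatocyte markers. These markers include Alb, Ttr and Apoa1, which are also among the negative acute-phase genes described below, so the scale varies with them. On this scale granulocyte-like cells held Lcn2 at 3.16, 175 and 19.3 times and cholangiocyte-like cells at 1.42, 59.4 and 7.88 times the T cell-like level. Both classes were above 1 in all 3 libraries. Fibroblast-like cells reached 5.68 times from 28 UMIs, dendritic cell-like cells 4.36 times from 39 UMIs and monocyte/macrophage-like cells 3.02 times from 161 UMIs under high-fat feeding, and their control values lay between 0.851 and 1.12.

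**Figure D2:**
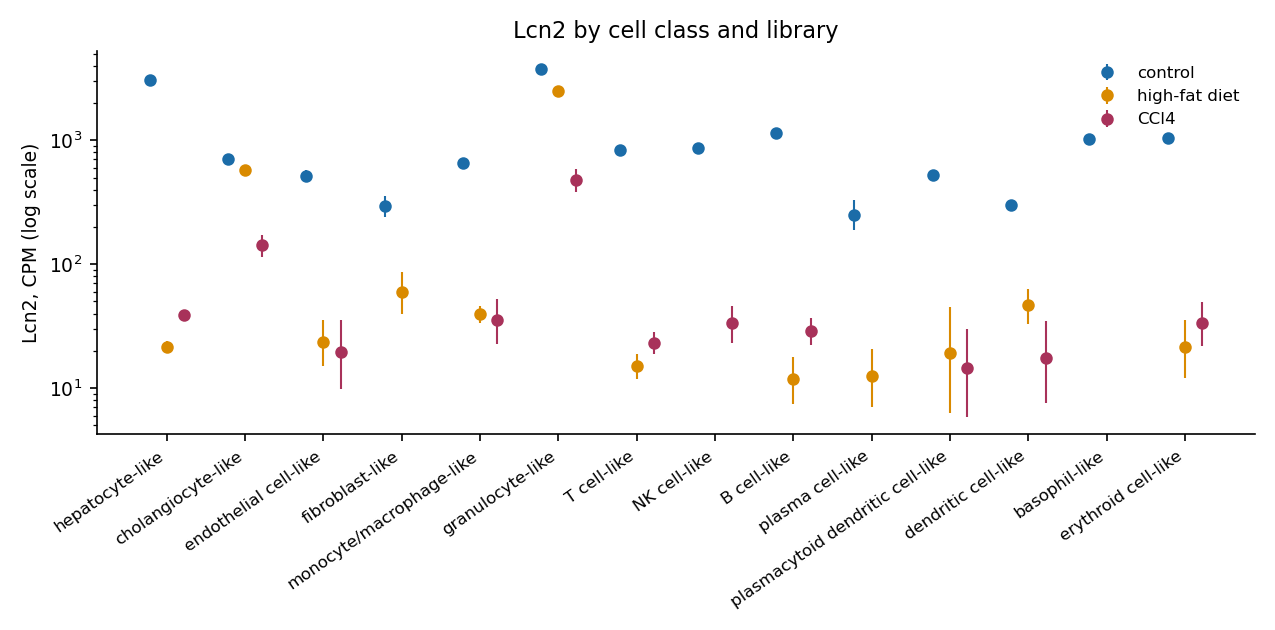
Lcn2 level (CPM, log axis) in each marker-defined cell class of the 3 libraries, with exact 95% counting intervals. Classes with under 5 Lcn2 UMIs in a library are left out, and granulocyte-like and cholangiocyte-like cells stood at 2508 and 573 CPM under high-fat feeding, where hepatocyte-like cells stood at 21.5 CPM.

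Among the orosomucoids, the plasma carriers, Orm1 stood at 8129 CPM in control hepatocyte-like cells, 2152 CPM under high-fat feeding and 1150 CPM with CCl4. It was lower in both treated libraries, 3.78-fold (3.74 to 3.82) and 7.07-fold (6.97 to 7.16). Orm2 stood at 903, 72.9 and 24.3 CPM, which was 12.4-fold lower under high-fat feeding (11.7 to 13.1) and 37.1-fold lower with CCl4 (34.0 to 40.6). For both genes the CCl4 library was the lowest, with Orm1 at 0.534 and Orm2 at 0.334 of the high-fat diet level. With CCl4, Orm1 in hepatocyte-like cells was 1.07 times its T cell-like level of 1078 CPM (interval 1.03 to 1.10), the smallest margin of any member in any library. Orm3 was rare, with 246 UMIs in control hepatocyte-like cells, 34 under high-fat feeding and 95 with CCl4. Its levels of 8.94, 1.97 and 4.63 CPM were 4.53-fold (3.16 to 6.69) and 1.93-fold lower (1.52 to 2.47) than in the control, and outside the control its ratio to T cell-like cells had an interval that included 1.

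Hp and Hpx, which bind hemoglobin and heme, showed smaller differences. Hp stood at 5657 CPM in the control, 1905 CPM under high-fat feeding and 1746 CPM with CCl4, or 2.97-fold (2.94 to 3.01) and 3.24-fold lower (3.20 to 3.28). Hpx stood at 6880, 3268 and 4375 CPM, or 2.11-fold (2.09 to 2.13) and 1.57-fold lower (1.56 to 1.59). Hpx was the only member whose T cell-like level was lowest in the control, at 2033 CPM against 2350 and 3065 CPM. Hp in T cell-like cells was 2219, 1461 and 1508 CPM. Of the receptors for their complexes, Cd163, which takes up haptoglobin with hemoglobin, had 13, 7 and 1 UMIs in monocyte/macrophage-like cells of the control, high-fat and CCl4 libraries, too few to compare. Lrp1, which takes up hemopexin with heme, stood at 142, 118 and 169 CPM in hepatocyte-like cells and at 316, 217 and 225 CPM in monocyte/macrophage-like cells.

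The protease inhibitor genes were also highest in the control. Serpina3n stood at 1276 CPM in the control, 156 CPM under high-fat feeding and 274 CPM with CCl4, or 8.20-fold (7.88 to 8.53) and 4.65-fold lower (4.52 to 4.78). Itih4 stood at 1834, 465 and 750 CPM, or 3.94-fold (3.85 to 4.04) and 2.44-fold lower (2.40 to 2.49). Unlike Orm1 and Orm2, both were higher with CCl4 than under high-fat feeding, by 1.76-fold for Serpina3n (1.68 to 1.85) and 1.61-fold for Itih4 (1.57 to 1.66). Their T cell-like levels were 279, 121 and 173 CPM for Serpina3n and 531, 359 and 451 CPM for Itih4.

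The pentraxins differed from each other. Apcs stood at 1411 CPM in the control, 120 CPM under high-fat feeding and 78.0 CPM with CCl4, or 11.7-fold (11.2 to 12.3) and 18.1-fold lower (17.2 to 19.0). Crp stood at 1010, 271 and 543 CPM, or 3.72-fold (3.61 to 3.84) and 1.86-fold lower (1.82 to 1.90). With CCl4, Apcs was thus at 0.649 of its high-fat diet level while Crp was at 2.00 times its own. Crp in hepatocyte-like cells was 4.78 times its T cell-like level in the control, 1.77 times under high-fat feeding and 2.80 times with CCl4, the widest margin of any member in the control and with CCl4. Its T cell-like levels were 212, 153 and 194 CPM, and those of Apcs 402, 74.2 and 55.6 CPM.

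Counted together, all 10 members were at least 2-fold lower in high-fat diet than in control hepatocyte-like cells and 0 were higher. Of 2548 genes with at least 50 CPM in either library, mitochondrial and ribosomal protein genes left out, 8.4% were at least 2-fold lower and 6.32% higher. Orm3 did not reach that level. With CCl4, 7 of 10 members were at least 2-fold lower than in the control and 0 higher, against 8.5% and 8.7% of 2575 genes. The exceptions were Orm3, Hpx and Crp. Since these comparisons chose the members and share the control library, nothing is read from the counts. Between the treated libraries, 1 member, Orm2, was at least 2-fold lower with CCl4 than under high-fat feeding and 1, Orm3, was higher, against 5.22% and 5.54% of 2510 genes. Orm3 and Lcn2 did not reach 50 CPM in either of these libraries, and of the 8 members that did, 0 were higher. Crp, at 2.00 times, lay just short of the limit, and Orm1, at 1.87-fold lower, was the nearest in the other direction.

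Hepatocyte-like clusters were of 2 kinds, with a median mitochondrial share of their UMIs above or below 2%. The mitochondria-rich clusters had medians of 8277.5 UMIs per cell in the control, 3621.5 under high-fat feeding and 3309.5 with CCl4, and the mitochondria-poor ones 3137, 2201 and 1992. In the rich clusters, 1532, 1184 and 3050 cells, all 10 members were at least 2-fold lower under high-fat feeding than in the control (6.97% of 2725 genes lower, 8% higher) and all 10 with CCl4 (9.06% of 2670 genes lower, 8.61% higher). Between the treated libraries 1 member, Orm2, was at least 2-fold lower with CCl4 and 0 were higher (5.23% and 3.69% of 2656 genes). In the poor clusters the counts were 7 under high-fat feeding (6.07% of 2405 genes lower) and 5 with CCl4 (10% of 2365 genes lower). Hpx, Itih4 and Crp were the members under 2-fold in the poor clusters of both treated libraries, and with CCl4 Hpx came to 0.940 of its control level there. T cell-like cells had 5 members at least 2-fold lower under high-fat feeding (22% of 3618 genes lower) and 4 with CCl4 (32.5% of 3559 genes lower). Orm3 did not reach 50 CPM in any of these sets of cells.

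The choice of control cells mattered for 4 members. The control cluster rich in mitochondrial RNA is hepatocyte-like by the number of its raised markers, but a rule by the share of each marker list would call it plasma cell-like and leave it out. The treated libraries kept their mitochondria-rich cells under this rule, so unlike sets of cells were compared. Against the remaining control cells, Hpx, Itih4 and Crp came to 1.14, 1.06 and 1.59 times the control with CCl4, no longer lower, and Serpina3n came to 0.670. Under high-fat feeding Hpx, Itih4 and Crp came to 0.848, 0.658 and 0.798 of the control, no longer 2-fold lower, and Serpina3n to 0.380. Between mitochondria-poor clusters alone, all 4 stayed below the control. There Crp stood at 340, 180 and 264 CPM in the control, high-fat and CCl4 libraries, and Itih4 at 707, 364 and 433 CPM. Hpx stood at 3852, 2944 and 3621 CPM and Serpina3n at 409, 135 and 219 CPM. In the mitochondria-poor cells of both treated libraries, the ratio of Itih4 to T cell-like cells had no interval above 1. Lcn2, Orm1, Orm2, Hp and Apcs were at least 2-fold lower in both treated libraries in either kind of cluster.

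**Figure D3:**
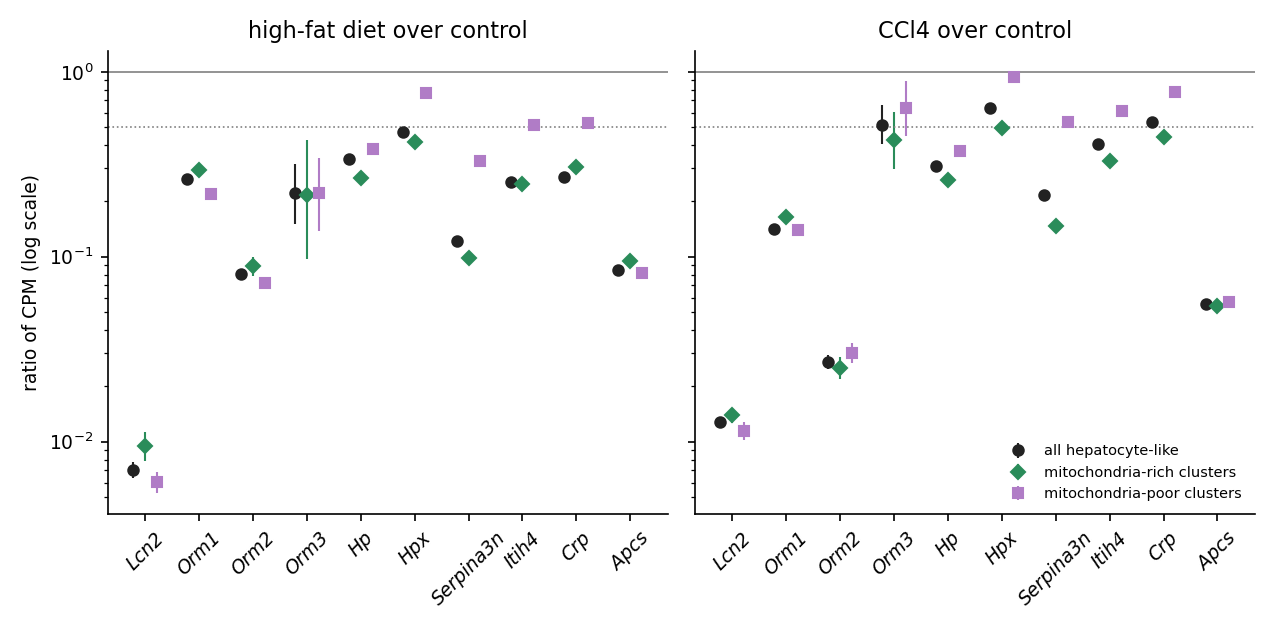
Ratio of CPM to the control library (log axis) for each member under high-fat feeding (left) and with CCl4 (right), in all hepatocyte-like cells and in the mitochondria-rich and mitochondria-poor clusters alone, with exact 95% counting intervals. The solid line marks equal levels and the dotted line a 2-fold lower level, and Lcn2 was the lowest member in every set of cells.

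Within a library, the kinds of cluster gave the members different profiles. In the control, Serpina3n was 5.28 times as high in mitochondria-rich as in mitochondria-poor clusters, Crp 4.98 times, Itih4 4.22 times and Hpx 2.59 times. Alb, the albumin gene and a negative acute-phase gene, stood at 3.79 times. Orm1 lay on the other side at 0.502 and Orm2 at 0.728, as did Saa1 at 0.477, Saa2 at 0.365 and Mt1 at 0.292. Lcn2 (0.915), Apcs (0.987) and Hp (1.18) were near equal. Under high-fat feeding and with CCl4 the same 4 members were higher in the rich clusters by smaller factors, Crp by 2.87 and 2.84, Itih4 by 2.03 and 2.28, Serpina3n by 1.58 and 1.44, and Hpx by 1.41 and 1.36. Orm1 was lower there in all 3 libraries, at 0.679 under high-fat feeding and 0.591 with CCl4. Free RNA is part of each level. Itih4 in mitochondria-poor cells stood at 364 CPM under high-fat feeding and 433 CPM with CCl4, with no interval above the T cell-like level. In the control it stood at 707 CPM there, with an interval above that level. Cell depth and mitochondrial share also differ between the kinds of cluster. The part of free RNA, depth and mitochondrial share in these ratios was not tested.

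**Figure D4:**
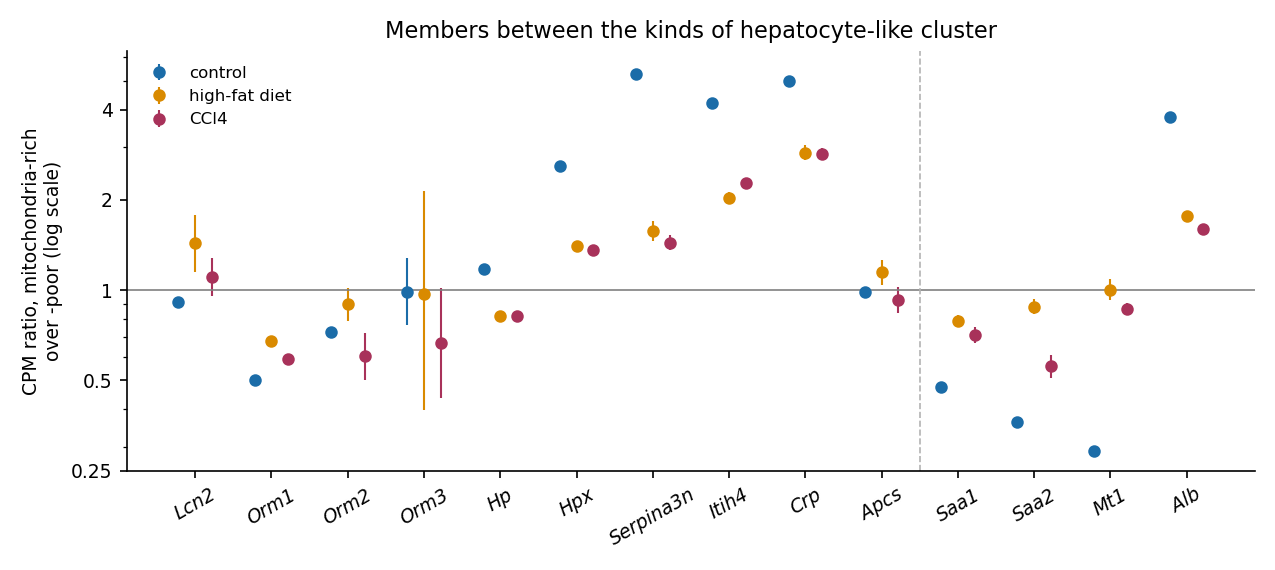
Ratio of CPM between mitochondria-rich and mitochondria-poor hepatocyte-like clusters (log axis) within each library, for the members and, right of the dashed line, for Saa1, Saa2, Mt1 and Alb, with exact 95% counting intervals. Hpx, Serpina3n, Itih4 and Crp lay above 1 in all 3 libraries and Orm1 below it.

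Against free RNA, all 10 members had an interval above 1 for hepatocyte-like over T cell-like cells in the control, and 9 of 10, without Orm3, in each treated library. Taken apart, mitochondria-rich and mitochondria-poor clusters had 9 and 7 such members under high-fat feeding, and 7 and 8 with CCl4. Lcn2 and Itih4 were not among them in the mitochondria-poor high-fat cells, nor Itih4 in the mitochondria-poor CCl4 cells. In the mitochondria-rich CCl4 cells Orm1 and Orm2 were not among them, and Orm3 was absent from all of these sets. Over all hepatocyte-like cells the ratios ran from 2.55 for Hp to 4.78 for Crp in the control, and from 1.29 for Serpina3n to 2.52 for Orm3 under high-fat feeding. Other classes passed the same measure. In the control, B cell-like cells had 9 members with an interval above 1, granulocyte-like cells 8 and NK cell-like cells 5. Erythroid cell-like cells had 6 under high-fat feeding and 5 with CCl4. Dendritic cell-like cells of the control had 0 above 1 and 10 below it. The T cell-like level is thus not a clean floor, and an interval above 1 does not by itself show expression. Relative to the hepatocyte markers, Crp in mitochondria-rich cells was 2.81, 2.63 and 3.09 times its T cell-like level in the control, high-fat and CCl4 libraries, and Itih4 was 1.97, 1.60 and 1.74 times. Orm1 came out at 0.736, 0.826 and 0.658 on this scale, which in hepatocyte-like cells divides by the cells' own marker RNA. The plain ratio of Orm1 in the mitochondria-rich cells was 2.10 in the control, and under high-fat feeding its interval also lay above 1. With CCl4 Orm1 stood at 889 CPM in these cells, below its T cell-like level. Outside hepatocytes, Crp exceeded the T cell-like level in cholangiocyte-like cells, at 2.53, 2.01 and 1.93 times on the marker scale, and with CCl4 in endothelial cell-like cells at 2.57 times and erythroid cell-like cells at 1.96 times. Its plain ratios were 1.51, 1.28 and 1.49 in cholangiocyte-like cells and, with CCl4, 2.59 and 2.39 in the others. Plain ratios of Crp also had intervals above 1 in NK cell-like, B cell-like and basophil-like cells of the control, at 1.14, 1.35 and 1.26, and in erythroid cell-like cells under high-fat feeding, at 1.36. Serpina3n in fibroblast-like cells stood at 1.58, 1.77 and 1.69 times on the marker scale, from 66, 70 and 21 UMIs, but its plain ratio to T cell-like cells was 0.648, 1.24 and 1.33, with no interval above 1. On that scale Hp stood at 1.21, 1.24 and 1.12 times in monocyte/macrophage-like cells and in the granule-rich granulocyte cluster at 1.64 in the control and 1.46 under high-fat feeding. Without the division by markers these ratios were 0.842, 1.07 and 0.896 and, in the granule-rich cluster, 0.837 and 0.906, mostly below the T cell-like level. Over all granulocyte-like cells the plain ratios of Hp were 1.37, 1.16 and 1.18, each with an interval above 1. They were not stable, since with 3000 variable genes Hp came to 0.769 in the control and 0.938 with CCl4. Orm1 and Orm2 in control granulocyte-like cells then came to 0.825 and 0.736. On the marker scale Hp in the whole class stood at 0.977, 1.23 and 1.12. On the marker scale granulocyte-like cells held Orm1 at 1.13, 0.999 and 1.17 times.

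Cell by cell, Lcn2 was seen in 98.7% of 4961 control hepatocyte-like cells, 4.99% under high-fat feeding and 9.22% with CCl4, against 74.4%, 3.33% and 5.01% of T cell-like cells. After every cell was thinned to 1000 UMIs the shares were 89.0%, 1.85% and 3.61% in hepatocyte-like and 46.0%, 1.42% and 2.25% in T cell-like cells. The median control hepatocyte-like cell held 11 Lcn2 UMIs, and the richest held 238. Under high-fat feeding 9 of 6399 and with CCl4 25 of 7039 hepatocyte-like cells held 3 or more Lcn2 UMIs, against 4553 in the control and 2 and 0 T cell-like cells in the treated libraries. High cells were thus a small minority in the treated libraries. Hpx was found in 99.8%, 99.5% and 99.8% of hepatocyte-like cells, and after thinning in 94.9%, 92.4% and 96.1% of them and 82.2%, 89.4% and 94.6% of T cell-like cells, so its share of positive cells hardly separates the classes. Thinned shares of Crp were 45.1%, 21.1% and 35.7% in hepatocyte-like and 19.4%, 14.4% and 17.3% in T cell-like cells. For Orm2 they were 55.4%, 7.02% and 2.60%, with 22.5%, 5.23% and 1.87% in T cell-like cells.

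In the 1532 mitochondria-rich control cells, log2 CPM (with 100 added) of Hp and Hpx had a Pearson r of 0.69 across cells, Hpx and Itih4 of 0.55, and Orm1 and Saa1 of 0.56. Orm1 and Orm2 reached 0.38, and Crp lay between -0.13 and 0.17 with every other member. Hpx and Alb reached 0.66. Under high-fat feeding and with CCl4 the pair Hp and Hpx had r of 0.39 and 0.38. These cells share a library and differ in depth, so the values describe the cells only.

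Liver lobules have oxygen-rich periportal and oxygen-poor pericentral ends, and hepatocyte-like cells were ordered by the difference between pericentral and periportal genes, a score cut into 3 equal groups that are ranges and not cell types. Cyp2e1 and Cyp2f2 are part of the score, so their ratios only describe it. Cyp2e1 was 28.4, 4.05 and 14.1 times as high in the pericentral as in the periportal group, and Cyp2f2 stood at 0.127, 0.266 and 0.582. Not every gene of the score kept to its side. Pck1, one of its periportal genes, stood at 1.17 in the control, 0.613 under high-fat feeding and 0.590 with CCl4, and at 1.18 in the mitochondria-rich control cells. The periportal gene Ass1 was at 0.831 with CCl4. Hpx was lower in the pericentral group in all 3 libraries, at 0.491, 0.634 and 0.614 of the periportal level, as was Lcn2 at 0.596, 0.531 and 0.637. Alb was lower there as well, at 0.435, 0.690 and 0.662. For Lcn2 the pericentral and periportal groups held 93 and 202 UMIs under high-fat feeding (16.4 and 30.8 CPM). With CCl4 they held 172 and 383 UMIs (29.2 and 45.9 CPM). The pericentral levels of Lcn2 in these 2 libraries were little above those of T cell-like cells, and the part of free RNA was not tested. Orm3 (2.09, 1.36 and 2.72) and Orm2 (1.19, 1.07 and 1.42) tended to the pericentral side, although the intervals of both under high-fat feeding included 1, as did that of Crp. Orm1 was at 0.847, 0.849 and 1.22, and Crp at 1.12, 1.03 and 0.643, so for these genes the CCl4 library pointed the other way from the control. In the mitochondria-rich cells alone Orm1 was at 0.793, 0.600 and 0.913, on the periportal side in every library, and Crp at 1.13, 0.837 and 0.962. These groups differed in depth, with medians of 3145 pericentral and 6297 periportal UMIs in the control and 2049 and 2876.5 with CCl4, and the median mitochondrial share with CCl4 was 0.854% and 3.38%. Their part in these ratios was not tested.

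**Figure D5:**
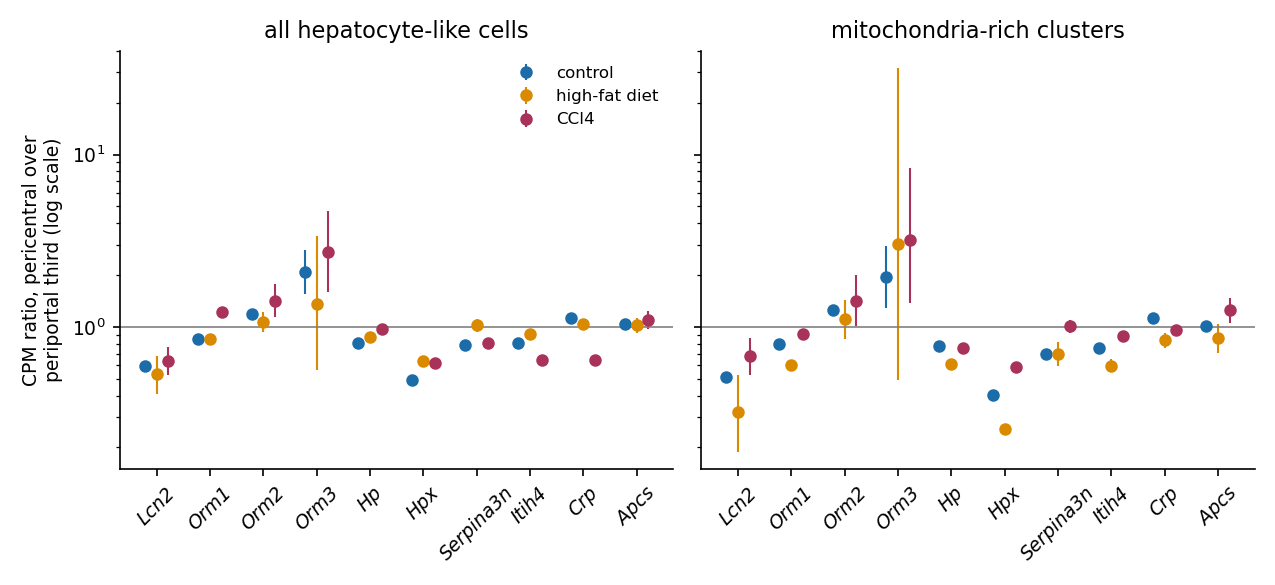
Ratio of CPM between the most pericentral and the most periportal of 3 equal groups of hepatocyte-like cells (log axis) in each library, for all hepatocyte-like cells (left) and the mitochondria-rich clusters (right), with exact 95% counting intervals. Lcn2 and Hpx lay below 1 in every library of both panels, whereas Orm1 with CCl4 lay at 1.22 on the left and 0.913 on the right. Lcn2 was near the level of free RNA in the treated libraries, and under high-fat feeding it rested on 21 and 79 UMIs on the right.

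The other acute-phase genes were taken from lists made with earlier results of these data known. All 4 serum amyloid A genes were at least 2-fold lower than in the control in hepatocyte-like cells of both treated libraries. Saa1 stood at 17515, 661 and 192 CPM, Saa2 at 21939, 351 and 94.6 CPM and Saa3 at 681, 9.80 and 13.5 CPM. Of 22 other positive acute-phase genes, 14 were at least 2-fold lower and 0 higher under high-fat feeding, and 11 lower and 1 higher with CCl4. Of all genes, 8.4% were lower and 6.32% higher under high-fat feeding, and 8.5% and 8.7% with CCl4. In mitochondria-rich clusters 15 of the 22 were lower and 0 higher under high-fat feeding (6.97% and 8% of all genes). The counts with CCl4 were the same (9.06% and 8.61% of all genes). In mitochondria-poor clusters 7 of the 22 were lower and 1 higher under high-fat feeding (146 and 244 of all 2405 genes). With CCl4, 7 of the 22 were lower and 2 higher there (237 and 269 of all 2365 genes). Among the 22 in all hepatocyte-like cells the metallothioneins, which bind zinc and copper, differed most, with Mt1 at 15394, 167 and 421 CPM and Mt2 at 4148, 26.3 and 88.8 CPM. The fibrinogen chains Fgb (9600, 4883 and 4805 CPM) and Fgg (9464, 3976 and 4300 CPM), the complement protein C3 (3594, 1475 and 1772 CPM) and the lipopolysaccharide-binding protein Lbp (158, 38.8 and 57.7 CPM) differed less. Cp, the copper-carrying ceruloplasmin, stood at 1626, 462 and 816 CPM, and Hamp, the iron hormone hepcidin, at 7574, 4647 and 6897 CPM.

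Negative acute-phase genes, whose proteins fall in inflammation, did not share this order. Of 10, 0 were at least 2-fold lower under high-fat feeding and 1 was higher, and with CCl4 0 were lower and 4 higher, against 6.32% and 8.7% of all genes higher. In T cell-like cells 8 of the 10 were at least 2-fold higher than in the control in each treated library, with median log2 differences of 1.30 and 1.96, larger than those of 0.25 and 0.76 in hepatocyte-like cells. Of all genes in T cell-like cells, 508 of 3618 were higher under high-fat feeding and 502 of 3559 with CCl4. Alb stood at 16949, 25853 and 55875 CPM, Ttr, which carries thyroid hormone, at 9309, 12426 and 26659 CPM, and Ahsg, fetuin A, at 2093, 2002 and 2692 CPM. Of 13 genes for receiving and passing on the signal, 8 were at least 2-fold lower under high-fat feeding and 0 higher, and 6 lower and 1 higher with CCl4. Of all genes, 8.4% and 8.5% were lower. Of the 13, 9 and 11 reached 50 CPM, and 7 and 5 of these were lower. In T cell-like cells 4 were lower and 2 higher under high-fat feeding (22% of all genes lower). With CCl4, 6 were lower and 2 higher there (32.5% of all genes lower). In T cell-like cells 7 of the 13 reached 50 CPM in each comparison. Of these 7, 1 was lower and 1 higher under high-fat feeding, and 4 were lower and 1 higher with CCl4. The interleukin 1 receptor gene Il1r1 stood at 187, 10.9 and 11.2 CPM and the C/EBP factor Cebpd at 76.5, 14.6 and 23.3 CPM. Stat3 (169, 70.6 and 89.4 CPM) and its feedback inhibitor Socs3 (120, 50.8 and 66.0 CPM) were also highest in the control, whereas the interleukin 6 receptor gene Il6ra stood at 28.3, 15.7 and 50.8 CPM. Il1r1 and Stat3 were also at least 2-fold lower in T cell-like cells of both treated libraries. Cebpd was so there under high-fat feeding and Socs3 with CCl4. On the log2 scale the median difference from the control was -2.08 for the members and 0.07 for the 2548 genes under high-fat feeding, and -1.96 and -0.0039 with CCl4 for the members and the 2575 genes.

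Of 7 genes for receptors and for handling the bound ligands, 1 was at least 2-fold lower and 1 higher in hepatocyte-like cells under high-fat feeding, and 2 were lower and 1 higher with CCl4. The shares of all genes were 8.4% lower and 6.32% higher under high-fat feeding, and 8.5% and 8.7% with CCl4. Of 8 neutrophil granule genes, 6 were at least 2-fold lower under high-fat feeding and 7 with CCl4, and 2 reached 50 CPM in control hepatocyte-like cells. These were S100a8 (58.2, 24.5 and 6.05 CPM) and S100a9 (55.8, 26.8 and 8.10 CPM), named after their values were seen. T cell-like cells held S100a8 at 55.2, 24.3 and 7.32 CPM and S100a9 at 61.4, 27.0 and 11.9 CPM, about as much as the hepatocyte-like cells. Ltf, Camp and Ngp had 17, 120 and 70 UMIs in control hepatocyte-like cells beside 84398 of Lcn2. In granulocyte-like cells Camp stood at 9372, 5008 and 845 CPM, Ngp at 5530, 3215 and 792 CPM and Ltf at 1085, 636 and 201 CPM, so these genes were lowest with CCl4, as Lcn2 was in the same cells. The make-up of the class differed, since the granule-rich cluster 15 held 147 of 616 control, 68 of 344 high-fat and 8 of 91 CCl4 cells. The part of granulocyte RNA in the Lcn2 of hepatocyte-like cells was not tested.

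The genes most like each member were sought by Pearson r of log2 CPM (with 5 added) over the 8 combinations of hepatocyte-like cluster and library with at least 50 cells, among 3367 genes. Lcn2 was followed most closely by Saa4 (r 0.99), Saa3 (0.99) and Nopchap1 (0.98), and Orm2 by Saa1 (0.99), the member Apcs (0.99) and Btg3 (0.99). Apcs was nearest to Ripk2, Cd302 and Krt8 (all 0.99), and Orm1 to Krt18 (0.98), Pla2g12b (0.97) and Apex1 (0.96). For Hp they were Tmem176b (0.98), the member Lcn2 (0.96) and Nrg4 (0.95), and for Hpx Ctsc (0.94), Ambp (0.93) and C8a (0.91). Serpina3n was nearest to Lbp (0.97), Susd6 (0.97) and Steap4 (0.97), and Itih4 to Cfb (0.99), Creb3l2 (0.98) and Susd6 (0.98). Crp was nearest to St3gal1 (0.98), Pdia4 (0.98) and Tmed7 (0.98). Orm3, which did not reach 50 CPM, had Srsf3 (0.90), Sh3bgrl (0.90) and Vma21 (0.89). With 8 points, of which 2 are control clusters far from the others, high values are common and carry no claim of shared control.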

How the data were processed

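For 3 libraries the authors deposited UMI counts of each gene in each barcode, unnormalized, made with the 10x Genomics 3′ platform per the labels and with Cell Ranger 7.2.0 per the file headers. The methods of the study name mm10, and the submitters' processing notes name GRCm39, so counts were used by gene identifier and positions come from GENCODE M21 (GRCm38), which holds 52081 of the 55357 identifiers. Every barcode had at least 1629 UMIs. Limits of 500 UMIs, 200 genes and 30% mitochondrial UMIs left out 39. Scrublet, with an expected rate of 8%, marked 6 of 36990 barcodes, which were removed. At that rate it cannot be taken to have worked, and removal of the 8% highest scores was an alternative. The 36945 cells kept were scaled to 10000 counts, log-transformed and clustered without batch correction on 2000 variable genes, 30 principal components and 15 neighbours (Leiden, resolution 1, 5 iterations; 40 clusters), with Python 3.11.15, scanpy 1.11.5 and scipy 1.17.1.

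A class named a cluster with at least 3 markers among its 10 leading genes, and otherwise by the largest number of markers raised 1.5 times in at least 10% of its cells. The rule first set used the largest share of a list. It called a control hepatocyte cluster plasma cell-like, so the number replaced it after the data had been seen, and the share is kept as an alternative. UMIs were summed per class and library and given as CPM with exact Poisson intervals, shares with Clopper-Pearson and ratios with exact conditional intervals, all at 95%. They cover counting error only. Calls are past 2-fold, with 50 CPM in either library for the share of all genes. Thinning to 1000 UMIs used expected values. The scripts were tested on simulated data. The members and lists were chosen with earlier results of these data known. All members are named, with fixed examples from each list, and for each member the 3 genes of highest r, without mitochondrial and ribosomal protein genes.

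Alternatives covered the mitochondrial and UMI limits, doublets, resolution, variable genes, clustering without acute-phase genes or by library, mitochondria-rich clusters alone, scaling, UMIs per cell, the level in T or B cell-like cells, a cut into 2 in place of 3 groups by zone, the thinning depth and the minimum CPM. The share rule was set first and became an alternative when the number rule replaced it after the data had been seen. Mitochondria-rich clusters scaled outside the acute-phase genes were added after seeing the data.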

Additional observations from a re-analysis of the deposited data

Results flagged for a closer look

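Along the order from periportal to pericentral hepatocyte-like cells, 2 members pointed in opposite directions in different libraries, with counting intervals on opposite sides of 1. Orm1 had a pericentral over periportal ratio of 0.847 in the control and 0.849 under high-fat feeding but 1.22 with CCl4. In the mitochondria-rich clusters Orm1 was below 1 in all 3 libraries. Crp had a ratio of 1.12 in the control and 0.643 with CCl4 in all hepatocyte-like cells, and in the mitochondria-rich clusters 1.13 in the control and 0.837 under high-fat feeding. With 1 library per condition these differences between libraries were not tested. Median depth and mitochondrial share differed between the compared groups of cells, as given above, and their part was not tested.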

How the results depend on the processing

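The counts of members at least 2-fold lower or higher than the control stayed within 1.5 times of those reported under every alternative, with 7 to 10 lower under high-fat feeding and 5 to 10 with CCl4. The same held for 79 of 90 values of this kind. The 11 others all concern CCl4 against the high-fat diet, where 1 member was higher and 1 lower. The number higher was 2 with at least 2000 UMIs and 500 genes, without the 8% highest doublet scores, at resolution 0.5, with 3000 variable genes, clustered without the acute-phase genes, scaled outside mitochondrial and the 20 most abundant genes, scaled outside the acute-phase list, and as UMIs per cell. It was 0 in mitochondria-rich clusters alone and 4 after the T cell-like level was taken off, where the number lower was 3. Crp, at 2.00 times, lies at the limit in this comparison. Itih4 with CCl4 over control went from 0.409 to 1.06 when clusters were named by the share of a list raised. That naming leaves the mitochondria-rich control cluster out but keeps the mitochondria-rich cells of the treated libraries. Over all 15 alternatives the ratio to the control ran from 0.00289 to 0.00944 for Lcn2 under high-fat feeding and from 0.00666 to 0.0139 with CCl4, and for the summed members from 0.113 to 0.313 and from 0.116 to 0.333. Under the same naming Hpx and Crp, under 2-fold lower in the main values, came to 1.14 and 1.59, and Hp with CCl4 over the high-fat diet, at 0.917, came to 1.03 in mitochondria-rich clusters scaled outside the acute-phase list. Of the other values, 650 stayed within their counting interval, 450 moved beyond it, and 1 that was past 2-fold, that of Itih4, changed direction. Counts of at most 246 UMIs limit Orm3, and 91 granulocyte-like cells limit that class with CCl4. No paired analysis was possible because each condition has 1 library, and no library could be left out for the same reason.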
